A study of Mus musculus with 95 samples.

Results

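Myc and Mycn, transcription factors of the Myc family, and 8 genes of the nucleolar machinery that makes ribosomes (Ncl, Npm1, Fbl, Nop56, Nop58, Dkc1, Polr1b and Nolc1) were followed through 95 RNA-seq libraries of sorted mouse blood stem and progenitor cells. The 10 genes were taken by symbol from a table of 53465 gene entries. After transplant, Myc was lower and Mycn higher in stem cells (HSC) than in HPC-1 progenitors, and Ncl was lower in HSC than in HPC-2 progenitors. At steady state, Nop56 was lower in HSC than in HPC-2 by a call close to the threshold, which was lost when any 1 of 12 of the 15 libraries was left out. No change of the 10 genes over time passed the test in the edgeR fit of all libraries, where DESeq2 called Nop56 in HSC and Myc in HPC-1 at weeks 3 to 4.

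Myc family proteins pair with Max on E-box DNA and raise the transcription of many growth genes, among them genes for making ribosomes. Ribosome production starts in the nucleolus, where RNA polymerase I copies the rRNA genes and small nucleolar ribonucleoprotein particles (snoRNPs) modify and help to cut the transcript. In the blood system, Myc is known for its role in the balance between stem cell self-renewal and differentiation, and Mycn for acting alongside it in stem cells.

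The transplanted libraries came from recipients that had been given 900 cGy of irradiation and 8000 LSK cells (lineage-negative, SCA-1+ and cKIT+ bone marrow cells). From these, HSC, HPC-1 and HPC-2 were sorted 3, 4, 5 and 6 weeks later, and again at 8, 10, 13 and at 16 weeks, with 3 libraries per population and week. The steady-state libraries came from untreated mice, 8 each for HSC and HPC-1, and 7 for HPC-2. All mice were labelled B6.SJL with an age of 8 to 12 weeks, and the cells were enriched for cKit, sorted, and amplified with SMART-Seq v4, a method for RNA of few cells. The labelled age cannot be that at sampling for recipients sampled 16 weeks after transplant. Age and time after transplant cannot be told apart. The labels give 1 gate for all 3 populations, the HSC gate without CD48 and with CD150, and a separate gate for HPC-1 or HPC-2 is not stated there. The labels do not say which libraries came from separate animals, so p-values measure the spread between these libraries. In such bulk libraries fewer cells of a type and less RNA per cell cannot be told apart.

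Total counts per library ran from 3551908 to 8492759, and 3827 to 15697 genes had a count. Cd48 averaged 24.7 CPM (counts scaled to the same total in every library) in HSC, 1002 CPM in HPC-1 and 507 CPM in HPC-2, and Slamf1, which encodes CD150, 92.3 CPM in HSC, 2.55 CPM in HPC-1 and 58.9 CPM in HPC-2, so the 3 populations differed at their sort markers whatever the gate in the labels. Cd3e of T cells was at 0 in all but 1 library, and the other T cell genes averaged at most 2.13 CPM in any population. Cd79b of B cells averaged 84.3 CPM in HSC, 94.1 CPM in HPC-1 and 50.2 CPM in HPC-2, and other B cell genes at most 2.37 CPM. Hbb-bs, the highest erythroid gene, averaged 109, 17.9 and 21.5 CPM in that order. Of monocyte and macrophage genes, Ly6c2 averaged 46.2, 71.6 and 22.7 CPM. C1qb averaged 4.25, 3.07 and 80.4 CPM (median 0 in each), and the others at most 4.61 CPM. The 5 neutrophil genes summed to a median of 445 CPM (0 to 9875) in transplanted HSC, 220.04 CPM (1.91 to 3535) in transplanted HPC-1 and 162 CPM (0 to 6489) in transplanted HPC-2, against 2684 CPM (0 to 6078) in HSC, 55.6 CPM (0 to 4084) in HPC-1 and 15.1 CPM (0 to 7515) in HPC-2 at steady state. In 12 libraries fewer than 10000 genes had a count, 12 libraries formed 6 pairs with nearly the same counts across groups, and 7 libraries were nearer to the mean profile of another population than to their own. Among the latter were all 3 HSC libraries of 3 weeks, which were nearer to HPC-2, and HSC steady-state replicate 1, which also nearly matched HPC-2 at 13 weeks replicate 1. Results are given below with and without these libraries where they matter.

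The members differ in level and in how well they were measured. Per kilobase of exon, mean levels over all 95 libraries were highest for Npm1, at 672 ± 180 CPM per kb (SD), followed by Myc (132 ± 105), Nop56 (116 ± 45.2), Dkc1 (85.8 ± 38.0) and Ncl (79.5 ± 38.3). Nop58 (44.2 ± 13.2), Nolc1 (26.1 ± 31.7), Fbl (16.9 ± 18.2) and Mycn (14.2 ± 14.8) came next, and Polr1b was lowest at 4.23 ± 4.98 CPM per kb. The order is that of the pooled libraries, and Nop56 lay above Myc in transplanted HSC (102 against 84.4 CPM per kb) and in steady-state HPC-1 (105 against 99.6). Neighbours in the pooled order differ by less than the larger SD of the pair, apart from Npm1, which stands above all others. Polr1b had no count in 10 of 95 libraries, Mycn in 6, Nolc1 in 2 and Fbl in 1, and the other 6 genes were counted in every library. All 10 passed the filter on low counts in every fit. Npm1 has many processed copies in the genome, so that its counts are uncertain, and snoRNA genes lie within Ncl, Nop56, Nop58 and Dkc1.

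All 10 genes are protein-coding, with coordinates here in GRCm38. Myc lies at chr15:61985391-61990374 on the plus strand, Mycn at chr12:12936093-12941914 on the minus strand, Ncl at chr1:86344719-86359400 on the minus strand, Nop56 at chr2:130274430-130279313 on the plus strand and Nolc1 at chr19:46075863-46085530 on the plus strand. For Ncl, Nop56 and Nolc1, nucleolar genes whose group means moved most closely together (Pearson r of 0.88 for Ncl with each of the others over 27 groups, as a description), the 250 bases before the RefSeq start are shown, from RefSeq on GRCm38.p6. They are chr1:86359456-86359705 on the minus strand for Ncl, chr2:130274162-130274411 on the plus strand for Nop56 and chr19:46075597-46075846 on the plus strand for Nolc1. Each is written 5′ to 3′ along the gene's strand, and capitals mark matches on either strand to the E-box letters searched and to the GC box described after them.
Ncl: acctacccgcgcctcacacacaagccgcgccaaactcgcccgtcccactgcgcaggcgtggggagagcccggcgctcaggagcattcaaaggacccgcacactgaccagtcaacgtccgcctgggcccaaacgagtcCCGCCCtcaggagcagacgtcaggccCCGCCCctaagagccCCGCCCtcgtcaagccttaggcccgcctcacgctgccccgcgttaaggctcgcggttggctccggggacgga
Nop56: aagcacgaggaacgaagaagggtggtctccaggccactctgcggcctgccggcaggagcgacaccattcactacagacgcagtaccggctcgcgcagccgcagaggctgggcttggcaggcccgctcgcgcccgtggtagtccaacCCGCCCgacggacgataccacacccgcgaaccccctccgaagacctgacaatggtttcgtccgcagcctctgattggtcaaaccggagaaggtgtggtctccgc
Nolc1: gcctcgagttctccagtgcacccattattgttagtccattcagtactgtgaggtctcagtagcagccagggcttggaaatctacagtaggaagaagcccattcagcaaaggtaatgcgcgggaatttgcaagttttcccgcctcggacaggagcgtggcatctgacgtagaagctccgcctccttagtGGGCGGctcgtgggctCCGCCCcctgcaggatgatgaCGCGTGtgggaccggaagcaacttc

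The letters searched on both strands were the E-box CACGTG, a variant written CGCGTG and read as CACGCG on the other strand, a variant written CGCATG and read as CATGCG, and the GC box, GGGCGG, read as CCGCCC on the other strand. No matches overlap in the windows shown. RefSeq windows were found for 7 of the 10 members, all but Myc, Npm1 and Fbl. The GC box was found in 6 of the 7 (all but Dkc1), against 32.7% of 32851 windows of the same length. CACGTG was in 0 of 7 windows and in 6.02% of all. CGCGTG was in the Nolc1 window, shown above, and in 7.62% of all, and CGCATG was in the Dkc1 window and in 5.46% of all. These matches describe the letters in the windows and are not binding sites.

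Within the Myc family, the median share of Mycn was higher in HSC libraries than in those of either progenitor population, a difference that was not tested. Mycn made up a median of 20.3% (9.59% to 96.4%) of the summed Myc and Mycn CPM per kb in transplanted HSC, 2.11% (0% to 11.6%) in transplanted HPC-1 and 7.05% (0% to 17.4%) in transplanted HPC-2. At steady state the medians were 31.0% (15.8% to 60.1%) in HSC, 4.28% (1.60% to 7.77%) in HPC-1 and 4.37% (0% to 12.9%) in HPC-2. Mycn exceeded Myc per kb in 2 of 24 transplanted HSC libraries and 3 of 8 steady-state HSC libraries, and in 0 of 32 HPC-1 and 0 of 31 HPC-2 libraries. In this share HSC overlapped either progenitor population after transplant and did not at steady state. The 96.4% was that of HSC at 13 weeks replicate 2, a library of few genes with 5.66 CPM of Myc.

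After transplant, Myc, the broad growth regulator of the family, ran from 5.66 to 657 CPM in 24 HSC libraries, with a median of 181 CPM, against 104 to 1222 CPM with a median of 415 CPM in 24 HPC-1 libraries. The ranges overlap, and 20 of 24 HSC libraries lie under the HPC-1 median. The HSC mean was 229 ± 163 CPM, against a mean of 469 ± 283 CPM for HPC-1 (SD, n = 24 each). With the populations compared within weeks, HSC had 0.479 times the Myc level of HPC-1, a log2 difference of -1.06 (SE 0.24) with an edgeR quasi-likelihood adjusted p of 0.00143 (Benjamini-Hochberg over all genes tested, called under 0.05). The week means of HSC were under those of HPC-1 at 8 of 8 weeks.

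Mycn, best known from the developing nervous system and also present in blood stem cells, went the other way. It ran from 23.5 to 207 CPM in transplanted HSC, with a median of 63.8 CPM, against 0 to 56.1 CPM with a median of 9.19 CPM in transplanted HPC-1. All 24 HSC libraries lie above the HPC-1 median and 14 lie above every HPC-1 library. HSC had 4.86 times the Mycn level of HPC-1, a log2 difference of 2.28 (SE 0.54) with an edgeR adjusted p of 0.00302. The HSC mean was the higher at 8 of 8 weeks. Myc and Mycn were the 2 members called in this comparison, 1 lower and 1 higher, where 3.14% of 11535 genes were called lower and 2.86% higher (6% in all). Both calls remained under each of the 8 alternatives run, with adjusted p from 3.83e-06 to 0.0150 for Myc and from 7.22e-05 to 0.0175 for Mycn, and without any 1 of the 48 libraries.

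**Figure D1:**
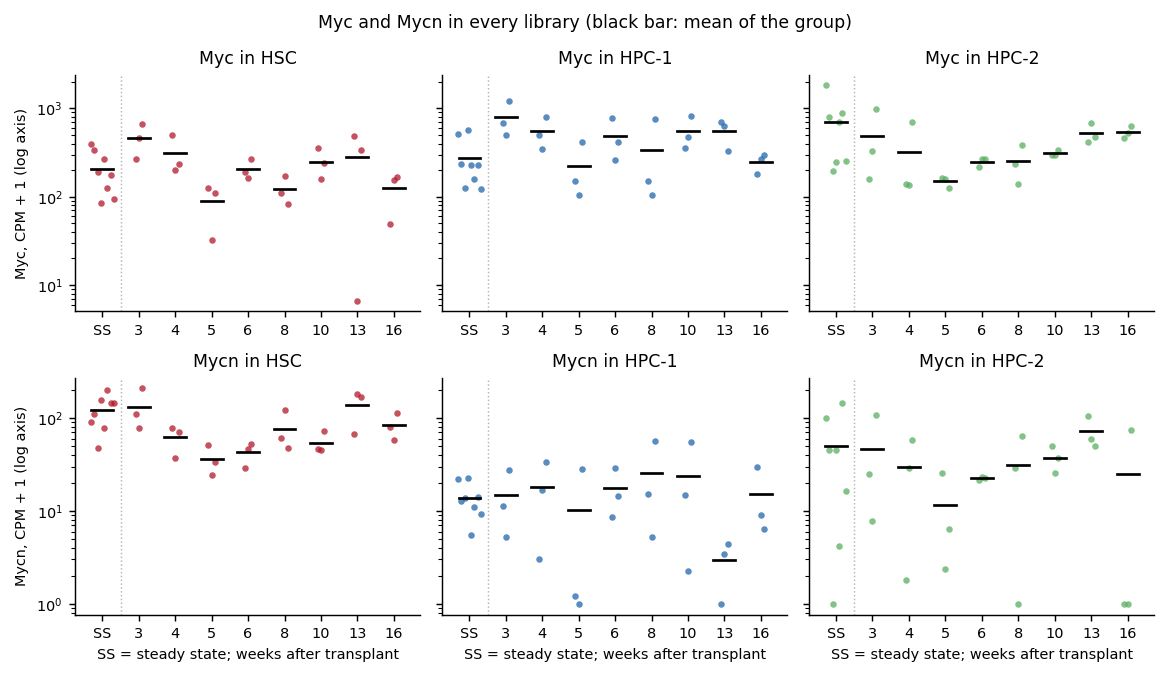
Myc (upper row) and Mycn (lower row) in every library of HSC, HPC-1 and HPC-2, in CPM + 1 on a log axis, at steady state and by weeks after transplant, with a black bar for the mean of each group. Mycn in HSC does not fall under 23.5 CPM in transplanted libraries, while the medians of HPC-1 and HPC-2 are 9.19 and 24.5 CPM.

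Against transplanted HPC-2, Myc and Mycn leaned the same ways in HSC, without a call by edgeR with its filter on low counts. HPC-2 libraries held 123 to 974 CPM of Myc, with a median of 295 CPM, and 18 of 24 HSC libraries lie under that median. The log2 difference for Myc was -0.63 (SE 0.24) with an edgeR adjusted p of 0.119. Mycn ran from 0 to 106 CPM in HPC-2, with a median of 24.5 CPM, and 23 of 24 HSC libraries lie above it. The log2 difference for Mycn was 1.33 (SE 0.52) with an edgeR adjusted p of 0.133. The HSC mean was under that of HPC-2 for Myc and above it for Mycn at 8 of 8 weeks, and DESeq2 called Myc (log2 difference -0.87, adjusted p = 0.0172) but not Mycn. With no filter on low counts, edgeR called both, with adjusted p of 0.0230 for Myc and 0.0441 for Mycn. Mycn was not called between HPC-2 and HPC-1 by edgeR (log2 difference of HPC-2 minus HPC-1 0.96, SE 0.53, adjusted p = 0.486), although the HPC-2 mean was higher at 8 of 8 weeks. In that comparison 0 of 10 members were called by edgeR, 0 at an unadjusted p under 0.05 and 0 by DESeq2, where 4.86% of all genes were called by edgeR, 1.67% higher and 3.19% lower. Over all genes, 1489 had an unadjusted p under 0.05 in edgeR, and DESeq2 called 957. Without the libraries of few genes, of nearly matched pairs and nearer to another population, Mycn was called higher in HPC-2 than in HPC-1, with a log2 difference of 1.55 and an edgeR adjusted p of 0.0179.

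At steady state, the median of Myc was lowest in HSC and highest in HPC-2, and no difference in Myc was called by edgeR. Steady-state HSC held 84.5, 93.6, 124, 174, 188, 266, 335 and 394 CPM of Myc in their 8 libraries, ordered by level. Steady-state HPC-1 ran from 120.4 to 563 CPM with a median of 227 CPM, and HPC-2 from 193 to 1827 CPM with a median of 692 CPM. All 8 HSC libraries lie under the HPC-2 median, and 5 of 8 lie under the HPC-1 median. The edgeR log2 difference was -1.58 (SE 0.47, adjusted p = 0.0994) for HSC minus HPC-2 and -0.43 (SE 0.45, adjusted p near 1) for HSC minus HPC-1. Leaving out HPC-2 steady-state replicate 7, which nearly matched an HPC-1 library and was nearer to HPC-1, made Myc called against HPC-2, with an edgeR adjusted p of 0.0397.

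Mycn did not overlap between HSC and HPC-1 at steady state, without a call by edgeR in the full set. Its 8 HSC libraries held 46.1, 76.2, 89.6, 111, 144.7, 145.9, 154 and 199.9 CPM, against 4.51, 8.25, 9.97, 11.6, 12.8, 13.2, 20.9 and 21.6 CPM in the 8 HPC-1 libraries. The lowest HSC library thus lies above the highest HPC-1 library, with a fitted ratio of 9.02 and a log2 difference of 3.17 (SE 0.87). How many of all genes tested also lack overlap was not counted. The edgeR adjusted p was 0.116, so that 0 of 10 members were called here, with 2 at an unadjusted p under 0.05, where 0.573% of 11348 genes were called. Of all 11348 genes, 467 had an unadjusted p under 0.05 in edgeR, and DESeq2 called 150. DESeq2 called 1 member, Mycn (adjusted p = 0.00181), and so did edgeR without the low libraries (0.000963), while over all 9 alternatives the adjusted p ran up to 0.292. Against steady-state HPC-2, which ran from 0 to 143 CPM of Mycn with a median of 43.9 CPM, all 8 HSC libraries lie above the median, and the log2 difference was 1.51 (SE 0.86) with an edgeR adjusted p of 0.669.

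By week, Myc had its lowest mean at 5 weeks in each of the 3 populations. Mean Myc in HSC was 207 ± 114 CPM at steady state (SD, n = 8), 461 ± 194 CPM at 3 weeks, 308 ± 161 CPM at 4 weeks, 88.8 ± 50.6 CPM at 5 weeks and 123 ± 65.1 CPM at 16 weeks (SD, n = 3 each). In HPC-1 it was 271 ± 171 CPM at steady state, 802 ± 375 CPM at 3 weeks, 222 ± 167 CPM at 5 weeks and 248 ± 59.0 CPM at 16 weeks. HPC-2 had 698 ± 574 CPM at steady state, 148 ± 21.6 CPM at 5 weeks and its highest week mean, 542 ± 81.2 CPM, at 16 weeks. Mycn was also lowest at 5 weeks in HSC, at 35.5 ± 13.5 CPM, and in HPC-2, at 10.4 ± 12.4 CPM. Single weeks, with 3 libraries, were not tested against each other, and HSC at 13 weeks replicate 2, a library of few genes, held 5.66 CPM of Myc and 182 CPM of Mycn.

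Of the 8 nucleolar genes, all had a negative difference of transplanted HSC from HPC-1 and 6 from HPC-2, all but Nop58 and Npm1, and 1 passed the test. Ncl encodes nucleolin, an abundant nucleolar protein of rRNA transcription and early processing. It ran from 129 to 1473 CPM with a median of 638 CPM in transplanted HSC, from 333 to 1677 CPM with a median of 838 CPM in HPC-1 and from 528 to 1679 CPM with a median of 790.3 CPM in HPC-2. The ranges overlap, with 17 and 16 of 24 HSC libraries under the medians of HPC-1 and HPC-2. Ncl was called lower in HSC than in HPC-2, with a log2 difference of -0.54 (SE 0.15) and an edgeR adjusted p of 0.0181. It was the only 1 of the 10 members called there, where 2.49% of all genes were called lower and 2.87% higher (5.36% in all), and the call was kept under all 8 alternatives (adjusted p from 0.00308 to 0.0426) and without any 1 library. The 20 proliferation genes summed to a median of 3634 CPM in transplanted HSC and 6279 CPM in transplanted HPC-2, and their part in the difference was not tested.

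Against HPC-1, Ncl missed the threshold narrowly, at a log2 difference of -0.46 (SE 0.15) with an edgeR adjusted p of 0.0501. DESeq2 (adjusted p = 0.0389) and edgeR with no filter on low counts (0.0234) called it. So did 15 fits that each left out 1 library, with adjusted p from 0.0306 to 0.0487. Those libraries were HSC at 3 weeks replicate 3, 4 weeks replicates 1 and 3, 6 weeks replicate 3, 10 weeks replicates 1 and 3, 13 weeks replicate 1 and 16 weeks replicate 1, and HPC-1 at 3 weeks replicate 3, 4 weeks replicate 1, 5 weeks replicate 2, 6 weeks replicate 2, 8 weeks replicates 1 and 2 and 10 weeks replicate 1. The HSC mean of Ncl was under that of HPC-1 at 8 of 8 weeks and under that of HPC-2 at 7 of 8.

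Nop56 and Nop58 are the paired core proteins of box C/D snoRNPs, which guide rRNA methylation, and Fbl is the methyltransferase of the same particle. Nop56 ran from 168 to 789 CPM in transplanted HSC with a median of 387 CPM, from 222 to 950.03 CPM with a median of 504 CPM in HPC-1, and from 298 to 887 CPM with a median of 471 CPM in HPC-2. The groups overlap, and the HSC mean was the lower at 7 of 8 weeks against either population. The edgeR log2 difference of Nop56 was -0.33 (SE 0.14, adjusted p = 0.160) against HPC-1 and -0.24 (SE 0.14, adjusted p = 0.345) against HPC-2. Fbl, with medians of 48.4 CPM in HSC, 55.1 CPM in HPC-1 and 57.8 CPM in HPC-2, gave -0.48 (SE 0.30, adjusted p = 0.439) and -0.65 (SE 0.30, adjusted p = 0.225). Nop58 was close to 0 in both comparisons, at -0.05 with a 95% interval of -0.30 to 0.21 against HPC-1 and 0.13 with an interval of -0.13 to 0.39 against HPC-2. The gap between Nop56 and Nop58 was not tested.

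Dkc1 (dyskerin) is the pseudouridine synthase of box H/ACA snoRNPs, and Nolc1 (Nopp140) a chaperone of snoRNPs and their route to the nucleolus. Nolc1 ran from 0 to 254 CPM with a median of 48.8 CPM in transplanted HSC, from 11.4 to 291 CPM with a median of 77.2 CPM in HPC-1 and from 5.78 to 379 CPM with a median of 93.0 CPM in HPC-2. Of 24 HSC libraries, 19 lie under the HPC-2 median. The edgeR log2 difference against HPC-2 was -1.25 (SE 0.41) with an adjusted p of 0.0574, and DESeq2 gave -1.53 with an adjusted p of 0.00285. Leaving out 1 library called it in edgeR 11 times, with adjusted p from 0.0370 to 0.0478. These were HSC at 3 weeks replicate 3, 5 weeks replicate 3, 8 weeks replicate 2 and 10 weeks replicate 1, besides, from HPC-2, 3 weeks replicate 1, 4 weeks replicates 1 and 2, 6 weeks replicate 1, 8 weeks replicate 2, 10 weeks replicate 3 and 16 weeks replicate 2. Dkc1 gave -0.33 (SE 0.17, adjusted p = 0.334) against HPC-1 and -0.30 (SE 0.18, adjusted p = 0.370) against HPC-2.

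Npm1, nucleophosmin, an abundant nucleolar chaperone for ribosome export, was nearly level across populations after transplant. It averaged 1778 ± 340.2 CPM in HSC, 1887 ± 424 CPM in HPC-1 and 1764 ± 597 CPM in HPC-2 (SD, n = 24 each). The 95% interval of its log2 difference was -0.33 to 0.15 against HPC-1 and -0.16 to 0.32 against HPC-2. Polr1b, the second largest subunit of RNA polymerase I, was low in all, with medians of 12.4 CPM in HSC, 14.5 CPM in HPC-1 and 19.4 CPM in HPC-2, and its log2 differences of -0.27 (SE 0.58) and -0.99 (SE 0.56) had wide errors. All 8 nucleolar genes had a negative difference against HPC-1 (7 without the libraries in doubt), with a median of -0.33 where the median of all genes tested was -0.11. Against HPC-2, 6 of 8 were negative, with a median of -0.42 where that of all genes was -0.03. Scaling by the RLE size factors of DESeq2, in place of edgeR's trimmed mean of M-values (TMM), moved the median of all genes to -0.22 and -0.19 and made Npm1 and Nop58 negative against HPC-2 too.

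**Figure D2:**
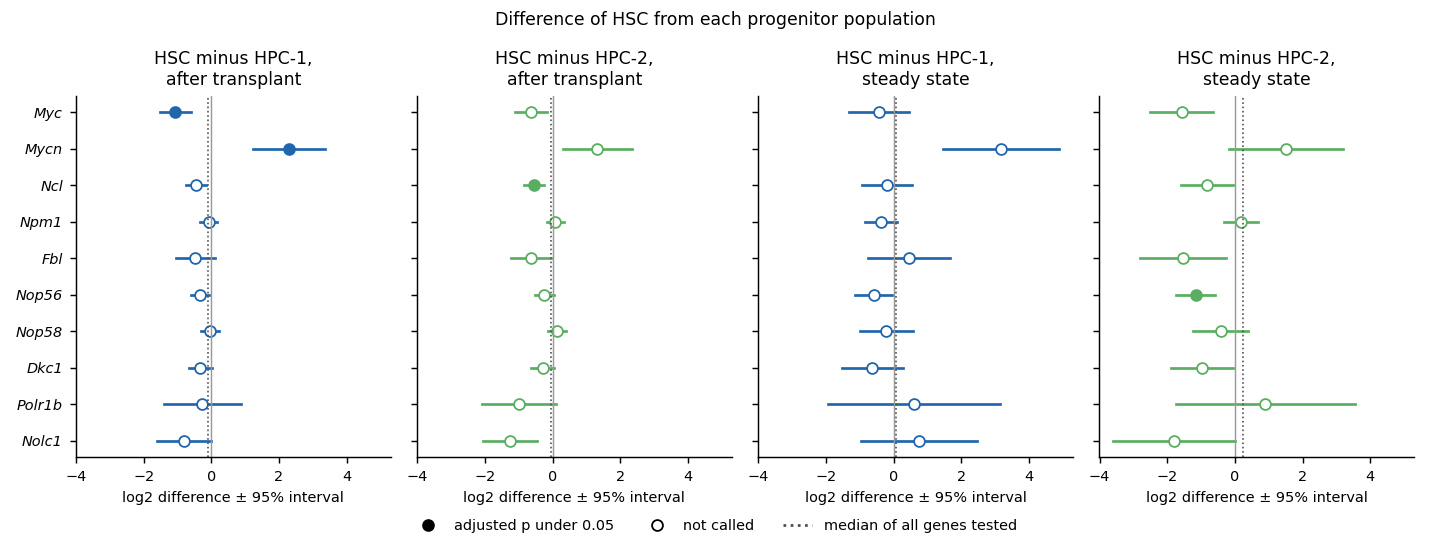
Log2 difference of HSC from HPC-1 and HPC-2, after transplant and at steady state, for the 10 genes, with 95% intervals of the edgeR fit, filled where the adjusted p is under 0.05, and a dotted line at the median of all genes tested. Mycn stands right of 0 and Myc left of it in all 4 panels, and filled points are Myc and Mycn against HPC-1, Ncl against HPC-2 after transplant, and Nop56 against HPC-2 at steady state.

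At steady state, Nop56 was the 1 member called against HPC-2, where 0.256% of 11348 genes were called lower and 1.08% higher (1.33% in all). Its 8 HSC libraries held 138, 203, 266, 282, 315, 319, 404 and 461.5 CPM, against 435.3, 534, 630.0, 678, 761.5, 886 and 1013 CPM in the 7 HPC-2 libraries. Only HSC replicate 4 lies above an HPC-2 library, replicate 7, and all 8 lie under the HPC-2 median. The log2 difference was -1.16 (SE 0.29) with an edgeR adjusted p of 0.0467, close to the threshold. With a block by replicate number, or by the number in the description, 0 members were called by edgeR. With no filter on low counts the edgeR adjusted p of Nop56 was 0.0731, and without all libraries in doubt its log2 difference was -1.50 with an edgeR adjusted p of 0.0721. It was not called when any of 12 of the 15 libraries was left out, namely HSC steady-state replicates 2, 4, 5, 6, 7 or 8, or HPC-2 steady-state replicates 1, 2, 3, 4, 5 or 6 (adjusted p from 0.0520 to 0.0885), nor without the low libraries (0.0907). Against steady-state HPC-1, at 285 to 570.3 CPM, the log2 difference of Nop56 was -0.60 (SE 0.28) with an edgeR adjusted p near 1.

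Of the other 7 nucleolar genes, 5 had a negative and 2 a positive difference from HPC-2 at steady state, without a call in the full set. Nop58 was at -0.42 (SE 0.42), and the positive ones were Npm1 at 0.18 (SE 0.25) and Polr1b at 0.89 (SE 1.35), both negative without the low libraries. The other edgeR log2 differences were -0.84 (SE 0.39, adjusted p = 0.521) for Ncl, -1.54 (SE 0.65, adjusted p = 0.418) for Fbl, -0.97 (SE 0.47, adjusted p = 0.552) for Dkc1 and -1.79 (SE 0.92, adjusted p = 0.592) for Nolc1. HSC replicate 1 carried the highest steady-state HSC level of Ncl (1446 CPM), Nolc1 (337 CPM) and Myc (394 CPM). Without HSC replicate 1 and HPC-2 replicates 5 and 7, the libraries nearer to another population, 5 members were called lower by edgeR: Myc (-1.86, adjusted p = 0.0227), Ncl (-1.31, 0.0295), Fbl (-2.46, 0.0177), Nop56 (-1.31, 0.0124) and Nolc1 (-3.04, 0.0273). That setting called 1645 genes in all, against 151 with all libraries. Since those libraries were set aside for their likeness to another population, which is measured on the same profiles, these calls are a description and no check of the result. The low libraries fell mostly in HPC-2 (4 of 7) and HSC (3 of 8) and not in HPC-1, and without all libraries in doubt 0 members were called by edgeR.

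Over time, no member passed the test in HSC in the edgeR fit of all libraries. At weeks 3 to 4 after transplant, Nop56 held 444 to 789 CPM with a median of 603 CPM in 6 HSC libraries, against 138 to 461.5 CPM with a median of 299 CPM in 8 at steady state. In 5 of the 6 it was above every steady-state library. The log2 difference was 1.09 (SE 0.27) with an edgeR adjusted p of 0.163. DESeq2 called it (1.14, adjusted p = 0.0392), and so did edgeR without the low libraries (1.01, 0.0475), while without the 3 libraries of 3 weeks, which were nearer to HPC-2, and HSC steady-state replicate 1 it was 0.95 with an adjusted p of 0.787.

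Dkc1, Ncl and Myc had the next differences in HSC at weeks 3 to 4. Dkc1 held 296 to 513 CPM with a median of 403 CPM, against 82.0 to 386 CPM with a median of 211 CPM at steady state, and 4 of 6 libraries were above every steady-state library (log2 difference 0.98, SE 0.39, edgeR adjusted p = 0.400). Ncl held 744 to 1473 CPM with a median of 917 CPM, against 247 to 1446 CPM with a median of 483 CPM (0.82, SE 0.34, edgeR adjusted p = 0.447). Myc held 199 to 657 CPM with a median of 363 CPM, against 84.5 to 394 CPM with a median of 181 CPM (0.90, SE 0.52, edgeR adjusted p = 0.764). All 6 libraries lie above the steady-state median for Myc, Ncl, Nop56, Nop58 and Dkc1, and the groups overlap for each. In this comparison 0 of 10 members were called by edgeR, 3 had an unadjusted p under 0.05, and 1 was called by DESeq2, where edgeR called 0.0319% of 12541 genes, 4 in number. Of all 12541 genes, 1005 had an unadjusted p under 0.05 in edgeR, and DESeq2 called 197. The 20 proliferation genes summed to 5252 to 9103 CPM in HSC at weeks 3 to 4, with a median of 6008 CPM, against 1344 to 9184 CPM with a median of 2438 CPM at steady state. Mitochondrial counts were 0.294% to 0.826% of the total at weeks 3 to 4, with a median of 0.749%, against 0.793% to 3.18% with a median of 1.80% at steady state. The HPC-1 markers summed to 362 to 749 CPM with a median of 637 CPM in HSC at weeks 3 to 4, against 52.1 to 466 CPM with a median of 197 CPM at steady state. In HSC this sum is mostly Plac8, which averaged 557 CPM over all 32 HSC libraries. Cd48 averaged 24.7 CPM there, and Satb1, Flt3, Dntt and Il7r at most 4.73 CPM. The HSC markers summed to 416 to 1007 CPM with a median of 680 CPM at weeks 3 to 4, against 254 to 1560.03 CPM with a median of 1211 CPM at steady state. The part of these quantities in the differences was not tested.

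Mycn did not share this direction in HSC. It held 36.5 to 207 CPM with a median of 76.9 CPM at weeks 3 to 4, against 46.1 to 199.9 CPM with a median of 128 CPM at steady state (log2 difference -0.34, SE 0.44, edgeR adjusted p = 0.976). At weeks 5 to 8 it held 23.5 to 121 CPM, with a median of 46.9 CPM, for a log2 difference of -1.07 (SE 0.40) from steady state with an edgeR adjusted p of 0.555. In that period 0 of 10 members were called by edgeR, 2 had an unadjusted p under 0.05, and 0 were called by DESeq2, where 0.0239% of all genes were called by edgeR. Over all genes, 696 had an unadjusted p under 0.05 in edgeR, and DESeq2 called 35. At weeks 10 to 16 against steady state, edgeR called 0 of 10 members and 0% of all genes, with 1 member at an unadjusted p under 0.05 (Dkc1, log2 difference 0.80, SE 0.36) and 0 members called by DESeq2. There 421 of all genes had an unadjusted p under 0.05 in edgeR, and DESeq2 called 25. Scaling by RLE size factors moved the median of all genes from -0.03 to -0.34 at weeks 5 to 8, under which 6 of the 8 nucleolar genes were negative, against 3 of 8 in the TMM fit.

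**Figure D3:**
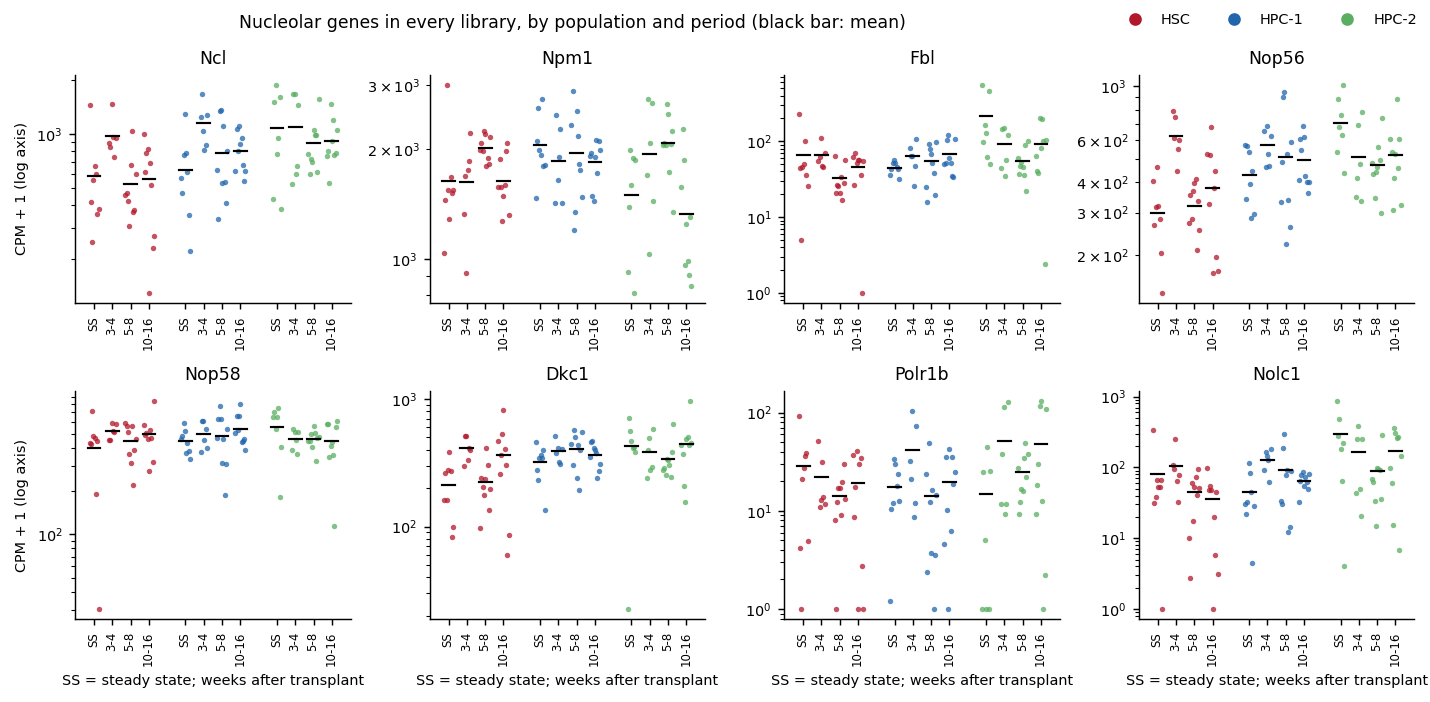
The 8 nucleolar genes in every library, in CPM + 1 on a log axis, by population (HSC, HPC-1, HPC-2) and by period (steady state, weeks 3 to 4, 5 to 8 and 10 to 16 after transplant), with a black bar for the mean. Nop56 in HSC at weeks 3 to 4 sits between 444 and 789 CPM, above most steady-state HSC libraries, while Npm1 stays between 809 and 2995 CPM in all 95 libraries.

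From weeks 3 to 4 to weeks 10 to 16, most nucleolar genes leaned down in HSC. Ncl held 129 to 1000.1 CPM with a median of 611 CPM in 9 HSC libraries of weeks 10 to 16, of which 8 lie under the weeks 3 to 4 median of 917 CPM (log2 difference -0.76, SE 0.33, edgeR adjusted p = 0.399). Nop56 held 168 to 679 CPM with a median of 377 CPM, of which 8 lie under the weeks 3 to 4 median (-0.68, SE 0.26, edgeR adjusted p = 0.292). In all, 7 of 8 nucleolar genes had a negative difference (8 of 8 with RLE scaling), with a median of -0.32 where that of all genes was -0.04 (-0.26 with RLE scaling). Of 10 members 0 were called by edgeR, 2 had an unadjusted p under 0.05 and 0 were called by DESeq2, where edgeR called 0.136% of all genes. Over all genes, 1233 had an unadjusted p under 0.05 in edgeR, and DESeq2 called 195. The summed proliferation genes ran from 1653 to 4833 CPM in HSC at weeks 10 to 16, under all 6 libraries of weeks 3 to 4.

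In HPC-1, Myc, Nolc1 and Ncl had the smallest p-values of the members at weeks 3 to 4, and Polr1b, at a log2 difference of 1.12 (SE 0.92, edgeR adjusted p = 0.734), had a larger difference than Ncl. Myc held 349 to 1222 CPM with a median of 592 CPM in 6 libraries, against 120.4 to 563 CPM with a median of 227 CPM in 8 at steady state, and 3 of 6 were above every steady-state library (log2 difference 1.22, SE 0.41, edgeR adjusted p = 0.250). Nolc1 held 60.7 to 178 CPM with a median of 135 CPM, against 3.40 to 114 CPM with a median of 30.4 CPM (1.40, SE 0.54, edgeR adjusted p = 0.309). Ncl held 814 to 1677 CPM with a median of 1142 CPM, against 220.1 to 1297 CPM with a median of 591 CPM (0.74, SE 0.29, edgeR adjusted p = 0.309). All 6 libraries lie above the steady-state median for each of the 3 genes, and the groups overlap. EdgeR called 0 of 10 members, 3 had an unadjusted p under 0.05, and DESeq2 called 1, Myc (1.30, adjusted p = 0.0492), where edgeR called 0.0162% of 12364 genes. Of all 12364 genes, 1379 had an unadjusted p under 0.05 in edgeR, and DESeq2 called 182.

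Later HPC-1 libraries lay lower in Ncl and Nolc1. All 9 libraries of weeks 10 to 16 lie under the weeks 3 to 4 median, with 546 to 1100.5 CPM of Ncl and 31.7 to 85.9 CPM of Nolc1, for log2 differences of -0.48 (SE 0.28) and -0.94 (SE 0.52) at edgeR adjusted p-values near 1. EdgeR called 0 of 10 members and 0% of all genes in this comparison, with 0 members at an unadjusted p under 0.05 and 0 by DESeq2. Over all genes, 459 had an unadjusted p under 0.05 in edgeR, and DESeq2 called 18. The same counts of members, 0, 0 and 0, and 0% of genes by edgeR held for HPC-1 at weeks 10 to 16 against steady state, where Myc had a log2 difference of 0.68 (SE 0.37). There 547 of all genes had an unadjusted p under 0.05 in edgeR, and DESeq2 called 10. The change from weeks 3 to 4 to weeks 10 to 16 was also compared between HSC and HPC-1, and the difference of the changes was -0.19 (SE 0.63) for Myc and -0.47 (SE 0.34) for Nop56 on the log2 scale. There edgeR called 0 of 10 members, 0 had an unadjusted p under 0.05 and DESeq2 called 0, with 0% of 14717 genes called by edgeR, and the intervals, -1.43 to 1.05 for Myc, leave room for sizeable differences. Of the 14717 genes, 962 had an unadjusted p under 0.05 in edgeR, and DESeq2 called 292.

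In HPC-2 at weeks 3 to 4, 3 of 8 nucleolar genes had a positive difference from steady state, with a median of -0.13 where that of all genes was 0.29 (0.11 with RLE scaling). Without the low libraries 5 of 8 were positive, with a median of 0.23, and without all libraries in doubt 3 were, with a median of -0.44. Myc held 134 to 974 CPM with a median of 245 CPM in 6 HPC-2 libraries of weeks 3 to 4, against 193 to 1827 CPM with a median of 692 CPM in 7 at steady state (log2 difference -0.60, SE 0.42, edgeR adjusted p near 1). All 9 libraries of weeks 10 to 16, at 294 to 676 CPM, lie above the weeks 3 to 4 median, with a log2 difference of 0.11 (SE 0.40) from weeks 3 to 4. Npm1 held 844 to 2264 CPM with a median of 1251 CPM at weeks 10 to 16, against 1033 to 2740.3 CPM with a median of 1885 CPM at weeks 3 to 4 (log2 difference -0.67, SE 0.29, unadjusted p = 0.0288 and edgeR adjusted p near 1). Both comparisons had 0 of 10 members called by edgeR and 0 by DESeq2, with 0% of 11885 genes called by edgeR, and 0 members at weeks 3 to 4 and 1 at weeks 10 to 16 had an unadjusted p under 0.05. Over all genes, 692 and 318 had an unadjusted p under 0.05 in edgeR, and DESeq2 called 167 and 38, in that order. Replicate 1 of 4 weeks nearly matched replicate 2 of 5 weeks in its counts, and 4 of 7 steady-state libraries were of few genes.

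**Figure D4:**
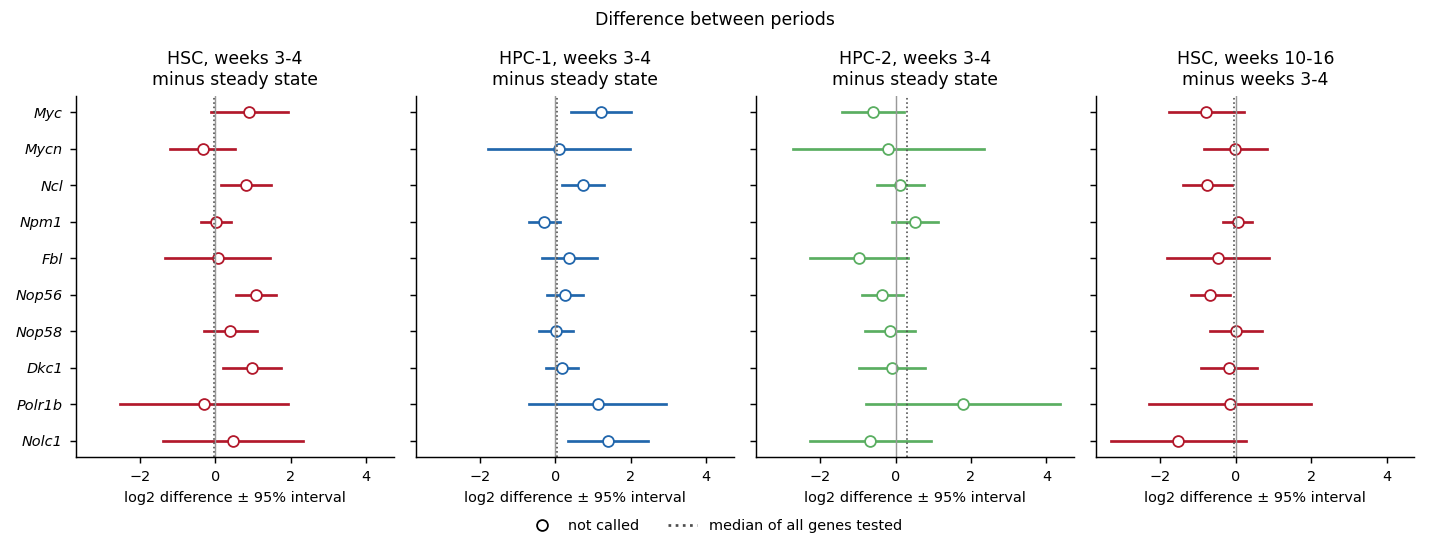
Log2 difference between periods for the 10 genes, with 95% intervals of the edgeR fit and a dotted line at the median of all genes tested, for HSC, HPC-1 and HPC-2 at weeks 3 to 4 minus steady state and for HSC at weeks 10 to 16 minus weeks 3 to 4. All points are open since none has an adjusted p under 0.05, and Nop56 in HSC at weeks 3 to 4, at 1.09 with an interval of 0.56 to 1.62, has the smallest p of the points shown.

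Several of the wider lists were mostly negative in transplanted HSC against either progenitor population. They were rRNA processing and subunit assembly, the Myc network, other Myc target genes and proliferation. Of 28 tested other Myc target genes, 21 were negative against HPC-1 and 22 against HPC-2, and of 20 proliferation genes 19 against each. Outside the proliferation list, edgeR calls were few. Of 70 tested genes of rRNA processing and subunit assembly, 52 had a negative difference for HSC minus HPC-1 after transplant (median -0.30) and 52 for HSC minus HPC-2 (median -0.25), where the medians of all genes were -0.11 and -0.03. Against HPC-1, edgeR called 0 of these 70, 4 had an unadjusted p under 0.05 and DESeq2 called 1. Of all 11535 genes tested, edgeR called 6% there, 1980 had an unadjusted p under 0.05 and DESeq2 called 1315 genes. Against HPC-2, edgeR called 1 of the 70 lower, where 2.49% of all genes were called lower. It was Nop9, a factor of small subunit assembly, with a mean of 32.5 ± 32.6 CPM in HSC and 91.6 ± 93.7 CPM in HPC-2 (SD, n = 24 each, log2 difference -1.59, SE 0.45, edgeR adjusted p = 0.0221). DESeq2 called 12 of the 70 there, and 1670 of all 11535 genes. An unadjusted p under 0.05 was found for 14 of the 70 there, and for 2128 of all genes. Of 15 genes of RNA polymerase I transcription, 10 were negative against HPC-1 (median -0.16) and 8 against HPC-2 (-0.11). Of 10 genes of snoRNP core and assembly, 7 were negative against HPC-1 (-0.12) and 4 against HPC-2 (0.02), where RLE scaling made 7 negative. Neither RNA polymerase I transcription (15 genes) nor snoRNP core and assembly (10 genes) held an edgeR call in either comparison, with 0 and 1 genes against HPC-1 and 2 and 1 against HPC-2 at an unadjusted p under 0.05, and 0, 0, 1 and 1 called by DESeq2 in that order. Nor did the Myc network of Max, its partners and regulators (15 tested), in which 12 genes had a negative difference against either population, with medians of -0.61 and -0.38, 0 and 1 genes at an unadjusted p under 0.05, and 0 and 1 called by DESeq2.

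Among 28 tested other Myc target genes, edgeR called 2 lower and 1 higher in transplanted HSC than in HPC-1, where 3.14% of all genes were called lower and 2.86% higher. Cdk4, a kinase of the entry into DNA synthesis, averaged 799.8 ± 211 CPM in HSC, against 1039 ± 206 CPM for HPC-1 (log2 difference -0.37, SE 0.09, adjusted p = 0.00400). Eif4a1, an RNA helicase of translation initiation, was also lower (-0.34, SE 0.11, edgeR adjusted p = 0.0421), and Ccnd2, the D-type cyclin, was higher (0.39, SE 0.12, edgeR adjusted p = 0.0440). Against HPC-2, where 2.49% of all genes were called lower, 1 of the 28 was, Mthfd1, an enzyme of folate metabolism (-1.48, SE 0.43, edgeR adjusted p = 0.0277).

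After transplant, 19 of 20 proliferation genes were negative in HSC against either progenitor population. Of the 8 nucleolar genes, 8 were negative against HPC-1 and 6 against HPC-2, while Mycn had a positive difference. In HPC-2 at weeks 10 to 16 minus weeks 3 to 4, 16 of 20 proliferation genes were positive, against 1 of 8 nucleolar genes (5 with RLE scaling). In transplanted HSC, edgeR called 1 of 20 lower than in HPC-1, against 3.14% of all genes (Mcm6, -0.98, SE 0.30, adjusted p = 0.0388). It called 11 of 20 lower than in HPC-2, against 2.49% of all genes, among them Top2a, the topoisomerase of mitotic chromosomes (-1.49, SE 0.24, adjusted p = 8.42e-06), and Mcm5 of the replicative helicase (-1.86, SE 0.41, adjusted p = 0.00164). Without the libraries in doubt edgeR called 3 and 13. The 20 genes summed to a median of 3634 CPM (1609.7 to 9103) in transplanted HSC, 5231 CPM (1596 to 7698) in HPC-1 and 6279 CPM (3767 to 12357) in HPC-2, and at steady state 2438 CPM (1344 to 9184) in HSC, 4048 CPM (2364 to 5965) in HPC-1 and 7271 CPM (3963 to 10560.3) in HPC-2. At steady state 3 of 20 were called lower in HSC than in HPC-2, against 0.256% of all genes (Mcm4 -2.19, adjusted p = 0.0403, Tyms -1.33, 0.0435, and Mcm7 -1.84, 0.0478, in edgeR). The part of these genes in the differences of Myc, Ncl and Nop56 was not tested.

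Early after transplant, 3 of the 6 lists were mostly positive in HSC and the other 3 were mixed, without a call by edgeR. For HSC at weeks 3 to 4 minus steady state, 57 of 70 genes of rRNA processing and subunit assembly were positive (median 0.50), as were 25 of 29 other Myc target genes (0.64) and 20 of 20 proliferation genes (1.02), where the median of all genes was -0.03. EdgeR called 0 in each of these lists, 2, 10 and 7 had an unadjusted p under 0.05, and DESeq2 called 0, 0 and 1. Of all 12541 genes tested in HSC, 1005 had an unadjusted p under 0.05 in edgeR, and DESeq2 called 197. Of the Myc network 6 of 15 were positive (median -0.18), of RNA polymerase I transcription 9 of 15 (0.14) and of snoRNP core and assembly 5 of 10 (0.20), with 0 called by edgeR or DESeq2 and 1, 1 and 2 at an unadjusted p under 0.05. Without the libraries in doubt these were 4, 6 and 5 positive. For HPC-1, 53 of 70 genes of rRNA processing were positive (median 0.59) and 16 of 20 proliferation genes (0.68), where the median of all genes was 0.03. EdgeR called 0 in both, 13 and 8 had an unadjusted p under 0.05, and DESeq2 called 1 and 3. Of all 12364 genes tested in HPC-1, 1379 had an unadjusted p under 0.05 in edgeR, and DESeq2 called 182. Of the other HPC-1 lists, 22 of 28 other Myc target genes were positive (0.49), 10 of 15 of the Myc network (0.22), 10 of 15 of RNA polymerase I transcription (0.32) and 6 of 10 of snoRNP core and assembly (0.13). EdgeR called 0 in each of these 4, with 8, 2, 3 and 2 at an unadjusted p under 0.05, and DESeq2 called 3, 0, 0 and 0. At weeks 10 to 16 against weeks 3 to 4 in HSC, the single edgeR call in these lists was Znrd1, a small subunit of RNA polymerase I. It was higher (1.77, SE 0.38, edgeR adjusted p = 0.0433), where 0.136% of all genes were called higher, while 11 of 15 genes of its list were negative. Without the libraries in doubt, 0 genes of that list and 0 of all genes were called by edgeR.

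Over the 27 group means, on log2(CPM + 1), the nucleolar genes did not form 1 tight set. The 28 pairs among the 8 had a median Pearson r of 0.37, from -0.33 to 0.88, with Ncl, Nop56 and Nolc1 at the top. Myc had r = 0.74 with the mean of the 8 and r = 0.85 with Ncl, while Mycn had r = -0.22 with that mean and -0.37 with Myc. Of 8195 genes outside the lists that averaged 10 CPM or more, the 5 most like the nucleolar mean were Csrp1 (0.92), Nr1h2, Smc6, Pold2 and Polr2m (0.89), and the 5 most like Myc were Hnrnpab (0.91), Acadl, Hnrnpf, Ucp2 and Hnrnpm (0.88). These values describe 27 groups of unequal size that share depth and, in 6 pairs, nearly the same library.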

How the data were processed

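The deposited table holds raw counts per gene for 95 libraries, made by the authors; per the submitters' processing notes the tools were Trimmomatic 0.36, HISAT2 2.0.5, Picard and featureCounts on GRCm38/mm10. The annotation release and the strand setting are not given in the sources used here, so reads of overlapping genes (5 shared exon bases of Nop56 with Idh3b, 45 of Dkc1 with Mpp1) cannot be assigned. Levels are CPM of the total count, per kb of merged exons where genes are compared. Tests were edgeR 4.0.16 quasi-likelihood fits (R 4.3.3) with TMM scaling and filterByExpr, with p adjusted over all genes tested and a threshold of 0.05; 95% intervals are normal intervals from the SE. Each population was fitted with its periods (steady state, weeks 3 to 4, 5 to 8 and 10 to 16), steady state with the 3 populations, and transplanted libraries with week as a covariate. Alternatives were RLE scaling, no filter, DESeq2 1.42.0, a replicate block, 1 mean per week, and leaving out each library or the doubtful ones. Doubtful are libraries with under 10000 genes detected, pairs with a chi-square per degree of freedom under 10 (6 of 4465 pairs, 1.24 to 4.50, against 15.1 for the next), and libraries whose rank correlation was higher with the mean profile of another population. The comparison of HPC-2 with HPC-1 and the fit without all doubtful libraries were added after seeing the data. Nearly matched libraries carry different labels, so that both were kept. Treatment labels of 1 HPC-2 library at 3 weeks read untreated and its title was followed; 2 titles written 10k were placed at 10 weeks.

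The 10 members and the gene lists were chosen with earlier results of these data known. Named are all members, up to 4 called genes per list and comparison with the smallest p, and the 5 genes most like Myc and the nucleolar mean. Fits were tested on simulated data, where most of the smaller changes put in, and many of the larger ones, were not called. A missing call is thus no sign that a gene did not change. The precision is set by total counts of 3551908 to 8492759 per library and by the spread between libraries.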

Additional observations from a re-analysis of the deposited data

Results flagged for a closer look

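Of 120 sets of a gene in 1 population and period, 10 held a library far from the others on the log2(CPM + 1) scale, where chance gives about 1 in 20 for separate sets. The sets share libraries, so that their count cannot be set against that rate. Npm1 was at 2995 CPM in HSC steady-state replicate 3, against 1041 to 1682 CPM in the other 7 libraries. Nop58 was at 29.4 CPM in HSC steady-state replicate 8 (190.1 to 713 CPM in the others) and Nolc1 at 0 in the same library (30.9 to 337 CPM). Both libraries are among the 12 with few genes detected, as are 3 more of those that follow. Dkc1 was at 21.6 CPM in HPC-2 steady-state replicate 1 (383 to 709 CPM), Nop58 at 114 CPM in HPC-2 at 16 weeks replicate 1 (344 to 609.6 CPM) and Fbl at 1.39 CPM in HPC-2 at 16 weeks replicate 2 (37.7 to 200.1 CPM).

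The other 4 were in libraries not among these 12, with 10113 to 12641 genes detected. Fbl was at 0 in HSC at 16 weeks replicate 2 (25.8 to 68.4 CPM), Polr1b at 0 in HSC at 5 weeks replicate 2 (7.02 to 28.8 CPM) and at 0.211 CPM in HPC-1 steady-state replicate 1 (9.44 to 33.0 CPM), and Dkc1 at 637 CPM in HPC-2 at 8 weeks replicate 3 (244 to 384 CPM).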

How the results depend on the processing

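Members called by setting: at weeks 3 to 4 against steady state, 1 in HSC by DESeq2 and 1 without low libraries, and 1 in HPC-1 by DESeq2, against 0. For HSC minus HPC-1 at steady state (0), 1 by DESeq2, 1 without low and 1 without all doubtful libraries. For HSC minus HPC-2 at steady state (1), 0 with no filter, 2 by DESeq2, 5 without nearly matched libraries, 5 without libraries nearer to another population, and 0 without low or without all doubtful libraries. With the replicate block it was 0, and 0 with a block by the number in the description. After transplant, 4 without libraries nearer to another population against HPC-1 (2), and against HPC-2 (1) 2 with RLE scaling, 4 with no filter, 4 by DESeq2 and 2 without libraries nearer to another population. HPC-2 minus HPC-1 gave 1 without all doubtful libraries, against 0. Of members' differences that were called or at least as large as their SE, directions turned for Nop56 in HSC at weeks 5 to 8 against steady state (-0.051 with RLE scaling and -0.051 by DESeq2, against 0.29), for Nop58 in HSC at weeks 10 to 16 against steady state under the replicate block (-0.0052, against 0.39), and for Fbl in HPC-2 at weeks 3 to 4 against steady state (0.41 without low and 0.11 without all doubtful libraries, against -0.97). Counting smaller differences too, the sign changed in 119 of 1320 values, none called in either fit: 19 of 150 with RLE scaling, 19 by DESeq2, 24 with the replicate block and 18 without all doubtful libraries, with the rest under the other alternatives, and in 129 of 3420 values that left out 1 library. With RLE scaling the 8 nucleolar genes went to 2 positive (from 5) in HSC at weeks 5 to 8 and 3 (from 5) at weeks 10 to 16 against steady state, 5 (from 1) in HPC-2 at weeks 10 to 16 against weeks 3 to 4 and 0 (from 2) for HSC minus HPC-2 after transplant. The cause was not tested.

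Leaving out 1 library gave 0 to 0 members in each comparison over time, in HSC minus HPC-1 at steady state, in the difference of changes and in HPC-2 minus HPC-1. It gave 0 to 2 for HSC minus HPC-2 at steady state, 2 to 3 for HSC minus HPC-1 and 1 to 2 for HSC minus HPC-2 after transplant. Genes called in all ran, for HSC minus HPC-2 at steady state (151), from 4 without HSC replicate 6 to 590 without HPC-2 replicate 7, and were 10 with no filter, 1 with the replicate block and 1574 without nearly matched libraries. For HSC at weeks 3 to 4 against steady state (4), they ran from 0 without HSC at 3 weeks replicate 3 to 39 without HSC steady-state replicate 1, and were 197 by DESeq2. For HSC minus HPC-1 after transplant (692), they were 2657 with no filter and 1315 by DESeq2, and for HSC minus HPC-2 (618), 2331 and 1670.

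In the main fits, replicate numbers were not taken to pair libraries. Deviations from group means correlated over 0.1 in 16 of 72 same-numbered pairs of 2 populations in the same week (median 0.034), against 18 of 144 with other numbers (-0.017). At steady state they did in 9 of 22 same-numbered pairs (0.056), against 16 of 154 with other numbers (-0.0081). Steady-state pairs from the same block of description numbers did in 6 of 22 (0.041). Same-numbered pairs passed 0.1 more often, so that some pairing of libraries is possible.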
